A study of Mus musculus with 3 samples.

Results

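Il10ra, Il10rb, Jak1, Tyk2, Stat3, Socs1, Socs2, Socs3 and Cish carry interleukin-10 signals into the cell or limit cytokine signals once they have begun. They are 9 of the 32285 genes in the count tables and were found there by gene symbol. Il10ra (the ligand-binding chain of the interleukin-10 receptor) was higher in both fusion libraries than in the wild-type library in 13 of the 14 cell classes where it had enough counts to be tested. Of all genes tested in at least 14 classes, 3.1% were higher in both in at least 13, and every class shares the single wild-type library. Il10rb, Jak1 and Tyk2, which form the rest of the receptor and its kinases, showed small differences in most classes. Among the inhibitors, Socs2 was higher in fusion pro-B and B cells. Its level in fusion stem and multipotent progenitors was below wild type, but that pair was not called in the main run. The pre-B to mature B cell pair and the stem pair both rest on few UMIs, and whether each was called depended on the processing. A second test, DESeq2, called none of these Socs2 pairs.

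Interleukin-10 binds a receptor made of an IL10RA chain, found mainly on blood cells, and an IL10RB chain, which is broadly made and shared with the receptors for interleukin-22 and the lambda interferons. JAK1 rests on the first chain and TYK2 on the second, and together they phosphorylate STAT3, which moves to the nucleus and turns on genes that dampen inflammation in macrophages and neutrophils. SOCS1, SOCS2, SOCS3 and CISH are induced by STAT proteins and limit cytokine signals, each at its own receptors. SOCS1 and SOCS3 block the kinases directly, and SOCS3 acts on the shared interleukin-6 receptor chain. SOCS2 and CISH are classical targets of STAT5 that limit growth hormone, erythropoietin and interleukin-2 signals.

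The study asks, by its title, how leukaemia fusions of the zinc finger protein ZNF384 disturb blood lineages. The fusion group held 2 libraries with the genotype Ep300-Znf384-V5-HA, which joins the acetyltransferase gene Ep300 to Znf384 with V5 and HA tags, and the wild type held 1 library. All came from male mice aged 6 weeks, and every library mixed 5000 live sorted cells of whole femur and tibia marrow with 5000 live lineage-depleted cells after red cell lysis, so class shares are not those of untouched marrow. The labels give neither the promoter nor the cells in which the fusion acts, nor whether each library is a single animal, so p-values measure only how these libraries spread, possibly for technical reasons. Genotype and the single wild-type library cannot be told apart.

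The libraries held 8122 to 9354 barcodes and 93262028 to 111836603 unique molecular identifiers (UMIs, which count captured RNA molecules), and 6895 to 7431 cells per library were kept. Only 22 to 30 barcodes of a library also occurred in another. The 21639 cells fell into 28 clusters that were joined by marker genes into 16 classes, rebuilt here without the submitters' own annotation. Cells labelled F2r and Apoe progenitors and intermediate neutrophils lay between marker lists and are called by their leading genes or position. Mature and intermediate neutrophils clustered by genotype. Clusters 3, 6 and 11 held fusion cells nearly alone (1, 0 and 4 wild-type cells). Clusters 7 and 15 held wild-type cells, with 8 and 8 fusion cells in cluster 7 and 7 and 6 in cluster 15. Immature neutrophils were mixed: cluster 2 held 651 and 567 fusion cells and 415 wild-type cells, and cluster 10 held 355 and 292 fusion cells and 295 wild-type cells. Over all cells Ep300 had 69.2 and 53.0 CPM (UMIs per 1000000 of the library) in fusion and 85.8 in wild type, and Zfp384, the mouse gene for ZNF384, had 26.5 and 19.5 in fusion and 15.6 in wild type; the fusion transcript itself was not counted as a feature here.

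Of the 144 pairs of a member and a class, 114 had enough UMIs for a test of genotype on the counts summed per library, with edgeR's quasi-likelihood test and Benjamini-Hochberg adjustment at 0.05 over all genes of the class. Of these pairs edgeR called 6 higher in fusion and 0 lower (5 lower at an unadjusted p under 0.05, and 0 lower by DESeq2). Over all 153930 gene and class pairs tested, 0.688% were called higher, 1.29% lower and 1.98% in either direction. The genes were chosen with this contrast in view, so the members' differences are given as a description, and nothing is read from their count. The count was 2 with DESeq2, of which Il10ra in basophils and mast cells is shared with edgeR, and 11 without the low-count filter. Of those 11 pairs 8 were higher and 3 lower, the lower ones being Socs3 and Cish in mature neutrophils and Socs2 in stem and multipotent progenitors. Clustering at resolution 0.5, clustering at resolution 2, clustering without these genes and keeping doublets each gave 1 lower call, of 1 of the same 3 pairs. Among the tested pairs, both fusion libraries lay above wild type in 53 and below in 37, against 35.1% and 34.8% of all gene and class pairs. The median log2 fold change (fusion over wild type) was 0.08 for the members and 0.005 for all pairs. Levels below are CPM on library sizes scaled by the TMM method, unless called plain CPM.

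**Figure D1:**
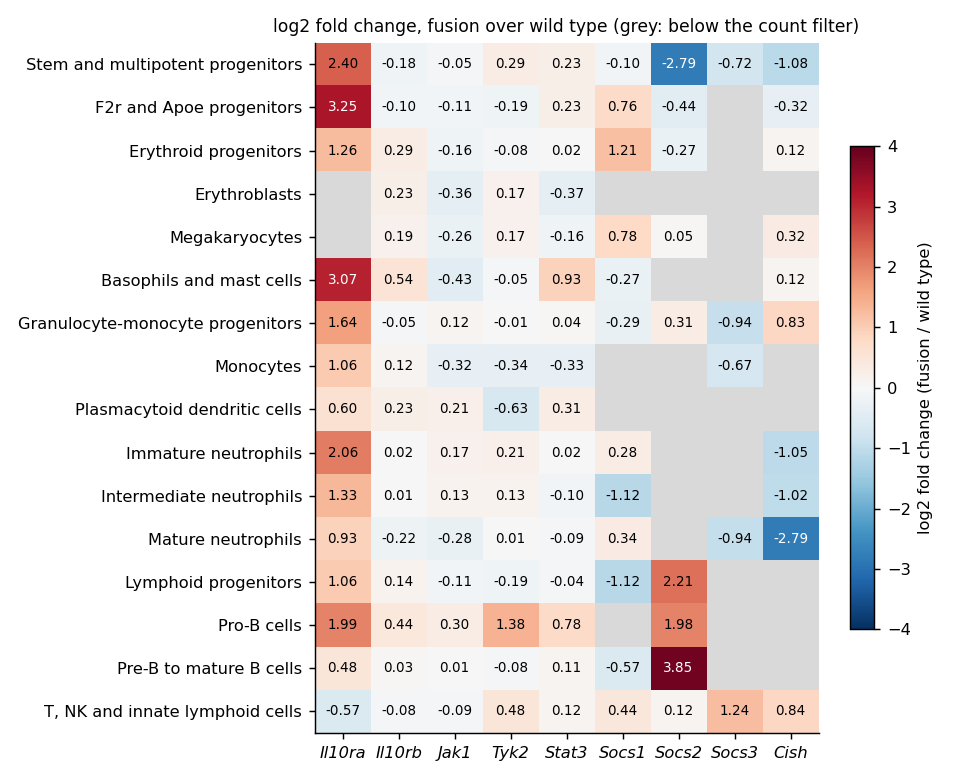
Log2 fold change (fusion over wild type) of the 9 genes (columns) in the 16 cell classes (rows), from counts summed per library; red is higher and blue lower in fusion, and grey pairs fell below the count filter. The Il10ra column is positive in 13 of 14 classes, while the Il10rb and Jak1 columns stay between -0.43 and 0.54.

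Il10ra (ENSMUSG00000032089, GRCm38 chromosome 9, 45253837 to 45269149, minus strand, protein coding) binds interleukin-10 itself. In basophils and mast cells its level was 68.4 and 73.9 CPM in the fusion libraries, against 8.48 CPM in wild type. Both fusion libraries stood far above wild type and close to each other, with a log2 fold change of 3.07 ± 0.26 (SE), in a class where 2.6% of all genes were called higher. In monocytes it had 109.0 and 61.4 CPM in fusion and 40.6 CPM in wild type (1.06 ± 0.23), where 0.931% of genes were called higher. Here the fusion libraries differed among themselves by more than the lower of them differed from wild type, and the log2 fold change was 0.60 without fusion replicate 1 and 1.43 without fusion replicate 2. In F2r and Apoe progenitors, a low-level class for this gene, it had 7.83 and 8.06 CPM in fusion and 0.816 CPM in wild type, where 0.149% of genes were called higher. Those values rest on 58 and 67 UMIs in fusion and 3 UMIs in wild type, so the ratio of pooled levels, 9.75, has a 95% counting interval of 3.26 to 47.9.

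Stem and multipotent progenitors, the cells that feed all blood lineages, had 39.7 and 34.0 CPM of Il10ra in fusion and 6.88 CPM in wild type (2.40 ± 0.39). The pair was not among the 6 calls, and edgeR and DESeq2 each called 0 of the 10107 genes of the class higher (254 at an unadjusted p under 0.05). It was called with DESeq2's size factors in edgeR, without the low-count filter, and at clustering resolutions of 0.5 and 2. The class changed with the clustering, from 116 wild-type cells in the main run to 362 at resolution 0.5 and 222 at resolution 2. At resolution 0.5, 206 and 85 of the 362 lay in clusters led by the lymphoid progenitor marker Dntt. Granulocyte-monocyte progenitors had 18.8 and 14.7 CPM in fusion and 5.33 CPM in wild type (1.64 ± 0.22). DESeq2 called this pair and the main edgeR run did not. It was also called by edgeR without the low-count filter, at resolution 0.5, when clustered without these genes and with doublets kept. Lymphoid progenitors had 32.7 and 28.2 CPM in fusion and 14.6 CPM in wild type (1.06 ± 0.25). In each of these 3 progenitor classes the fusion libraries lay apart from wild type by more than they lay from each other.

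Among B lineage cells, pro-B cells had 25.6 and 24.8 CPM of Il10ra in fusion and 6.21 CPM in wild type (1.99 ± 0.68), from 12 and 17 UMIs in fusion and 9 in wild type. Pre-B to mature B cells had 45.1 and 45.6 CPM in fusion and 32.5 CPM in wild type (0.48 ± 0.33). Plasmacytoid dendritic cells, the interferon-making dendritic cells, had 66.4 and 56.8 CPM in fusion and 40.6 CPM in wild type (0.60 ± 0.24). In the neutrophil series the levels were low: mature neutrophils had 18.7 and 12.5 CPM in fusion and 8.22 CPM in wild type, and the intermediate class had 14.7 and 13.4 CPM in fusion and 5.58 CPM in wild type. T, NK and innate lymphoid cells went the other way, at 10.5 and 22.6 CPM in fusion and 25.0 CPM in wild type (-0.57 ± 0.53), where fusion replicate 2 nearly met wild type. Of the 7152 genes tested in at least 14 classes, 222 (3.1%) lay above wild type in both fusion libraries in at least 13 classes.

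**Figure D2:**
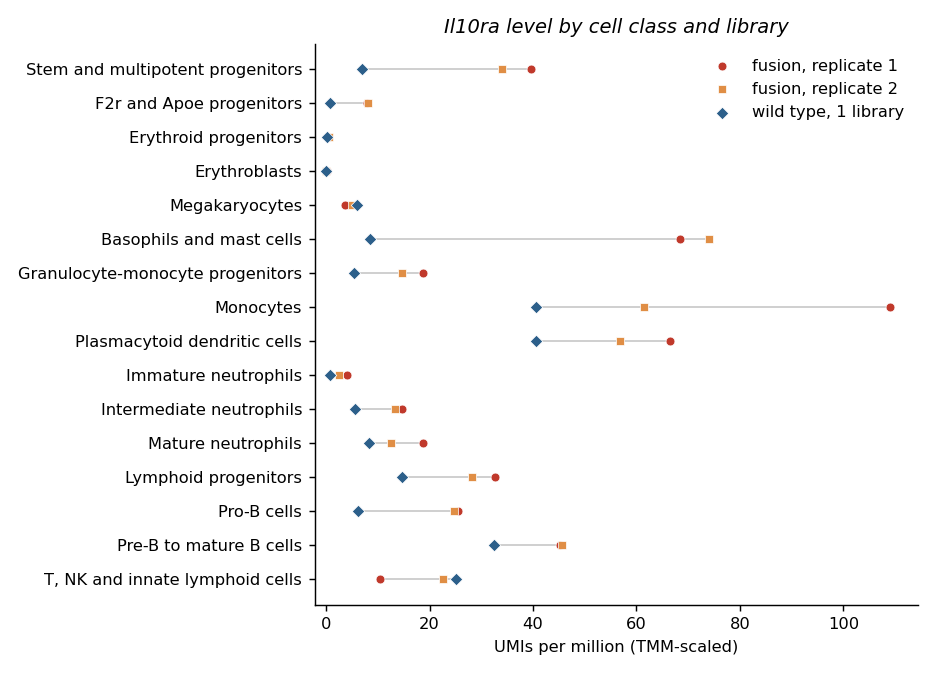
Il10ra level (TMM-scaled CPM of UMIs, x axis) in each cell class (rows) for fusion replicate 1, fusion replicate 2 and the wild-type library; a grey line spans the 3 values. Fusion basophils and mast cells sit at 68.4 and 73.9 against 8.48 in wild type, and both fusion points lie below wild type only in T, NK and innate lymphoid cells and, below the count filter, in megakaryocytes.

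The order of Il10ra levels across classes differed between the genotypes. In fusion, monocytes, basophils and mast cells, and plasmacytoid dendritic cells held the upper places, and their library values overlapped (61.4 to 109.0, 68.4 to 73.9 and 56.8 to 66.4 CPM), so only the basophils stood clear of the plasmacytoid cells. Pre-B to mature B cells and stem and multipotent progenitors followed, at 45.1 and 45.6 CPM and at 39.7 and 34.0 CPM. In wild type, monocytes and plasmacytoid dendritic cells were level at 40.6 CPM each, followed by pre-B to mature B cells (32.5 CPM), T, NK and innate lymphoid cells (25.0 CPM) and lymphoid progenitors (14.6 CPM), with basophils and mast cells below all of these. With a single wild-type library no spread can be put on that order. Erythroblasts had 1 and 0 UMIs of Il10ra in fusion and 0 in wild type.

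Within classes, the difference was present in each basophil cluster of the main run. Cluster 14, led by the protease genes Mcpt8 and Prss34, had 45.6 and 54.1 plain CPM of Il10ra in fusion and 1.495 in wild type. Cluster 19, led by Ccl3 and Cd200r3, had 214.3 and 220.9 plain CPM in fusion and 22.7 in wild type. Il10ra was thus higher in cluster 19 in every library. That cluster made up less of the class in fusion, 28.4% and 22.1%, than in wild type, 55.1%. At resolution 2 the class also held a cluster led by Gzmb and Scin, with 81 and 110 fusion cells and 56 wild-type cells. The cluster led by Mcpt8 and Cpa3 markers with Prss34 then held 61 and 101 fusion cells and 217 wild-type cells. Il10ra was not read in the clusters of resolution 2, and the part of this makeup was not tested. The basophil marker list summed to 27566 and 31474 plain CPM in fusion and 58509 in wild type, and the stem list to 309.3 and 290.0 in fusion and 144.5 in wild type; their part in the result was not tested.

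Monocytes held a cluster led by Fn1 and Ccr2 (cluster 13) and a cluster led by the antigen presentation genes H2-Aa and Cd74 (cluster 22). Il10ra had 78.2 and 41.5 plain CPM in fusion cluster 13 and 29.8 in wild type, and 234.6 and 154.3 plain CPM in fusion cluster 22 and 125.7 in wild type. Both fusion libraries were above wild type in each cluster, but cluster 22, where the gene was higher, was 38.2% and 39.3% of fusion monocytes and 20.4% of wild-type monocytes. The 7 conventional dendritic cell markers summed to 995.7 and 693.4 plain CPM in fusion monocytes and 294.4 in wild type, and the part of this shift in the class value was not tested. The stem and multipotent class also held 2 clusters, and Il10ra had 58.1 and 36.7 plain CPM in fusion and 10.0 in wild type in cluster 8,1, led by Hlf, and 20.8 and 29.2 plain CPM in fusion and 2.18 (1 UMI) in wild type in cluster 8,3, led by Adgrl4 and Cd34.

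Counted by cells, 38.1% of the 197 and 39.9% of the 271 fusion basophils and mast cells had at least 1 Il10ra UMI, against 4.67% of 599 in wild type, at median depths of 6555 and 7630 UMIs in fusion and 4657 UMIs in wild type. After thinning every cell to 1000 UMIs the shares were 11.7% and 7.38% in fusion and 1.17% in wild type. In stem and multipotent progenitors the shares were 29.7% and 29.4% in fusion and 6.03% in wild type, at median depths of 9156 to 10853 UMIs. Erythroblasts, which should lack the gene, gave the background: 1 of 161 and 0 of 243 fusion cells and 0 of 134 wild-type cells, which allows a share of up to 2.24% in wild type, at median depths of 25318 and 25955 UMIs in fusion and 25025.5 UMIs in wild type. The wild-type share in stem and multipotent progenitors had a 95% interval of 2.46% to 12.0%. Its lower end is slightly below the upper limit of 2.72% that the exact interval gives for the wild-type erythroblasts. Such an overlap does not decide whether the shares differ, which was not tested, and the erythroblasts were read more deeply. Cells with a UMI of both receptor chains were 6.60% and 8.49% of fusion basophils and mast cells and 0.334% in wild type, and 22.1% and 20.4% of fusion monocytes and 12.1% in wild type. Intervals here cover counting error only.

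**Figure D3:**
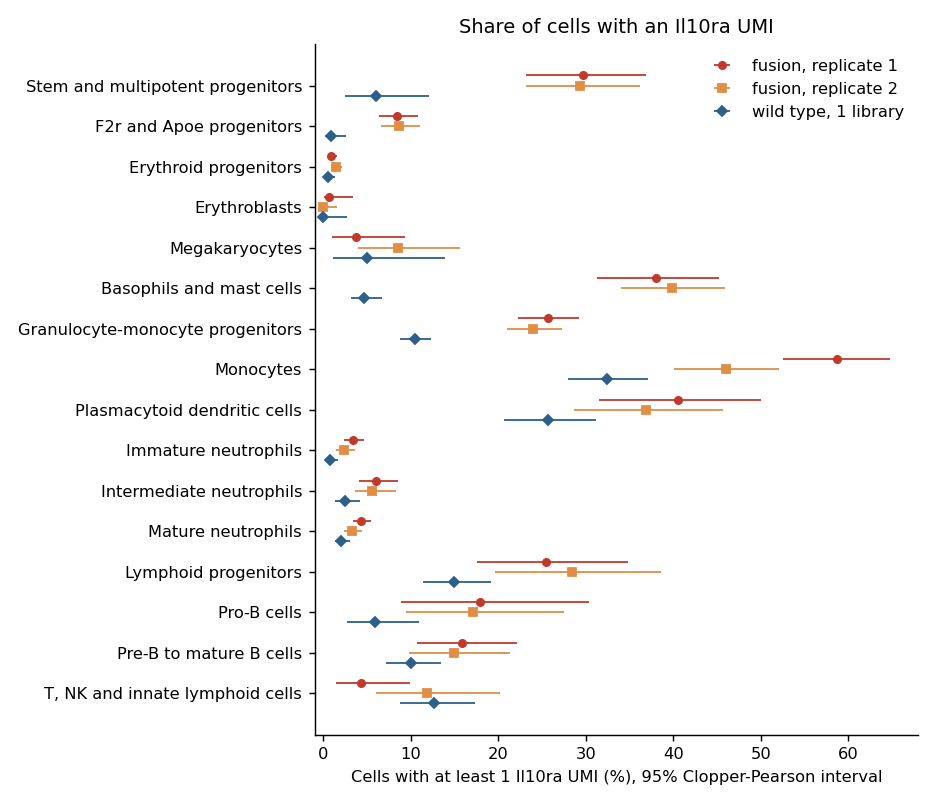
Share of cells with at least 1 Il10ra UMI (x axis, %) in each class for the 3 libraries, with 95% Clopper-Pearson intervals that cover counting error only. In basophils and mast cells and in stem and multipotent progenitors the fusion intervals lie apart from the wild-type interval, and all libraries sit near 0 in erythroblasts.

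Il10rb (ENSMUSG00000022969, chromosome 16, 91406164 to 91425834, plus strand) supplies the second chain of the receptor. It was tested in all 16 classes, and its log2 fold changes ran from -0.22 to 0.54. For Il10rb, Jak1, Tyk2, Socs1, Socs3 and Cish together, edgeR and DESeq2 each called 0 of 75 tested pairs, and 7 had an unadjusted p under 0.05. Socs3 and Cish in mature neutrophils were called lower under other settings, as given with those genes. Mature neutrophils had its highest mean level, 71.2 and 87.5 CPM in fusion and 92.0 CPM in wild type. In basophils and mast cells, where Il10ra differed most in CPM, Il10rb had 27.4 and 22.5 CPM in fusion and 17.0 CPM in wild type (0.54 ± 0.28). In the same cells the log2 fold change of Il10ra was 3.07.

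Jak1 (ENSMUSG00000028530, chromosome 4, 101152367 to 101265282, minus strand), the kinase on the first chain, and Tyk2 (ENSMUSG00000032175, chromosome 9, 21104068 to 21131243, minus strand), the kinase on the second, were tested in 16 classes each. Jak1 was lower in both fusion libraries in 10 classes and higher in 5. Its lowest log2 fold change was in basophils and mast cells, where it had 228.2 and 240.0 CPM in fusion and 315.1 CPM in wild type (-0.43 ± 0.20). T, NK and innate lymphoid cells had the highest Jak1 level, 450.3 and 410.9 CPM in fusion and 457.1 CPM in wild type. Tyk2 was higher in both fusion libraries in 5 classes, lower in 5 and around wild type in 6. Its largest difference, in pro-B cells, was 19.2 and 17.5 CPM in fusion and 6.90 CPM in wild type (1.38 ± 0.81), from 9 and 12 UMIs in fusion and 10 in wild type. In plasmacytoid dendritic cells Tyk2 had 19.6 and 30.8 CPM in fusion and 39.7 CPM in wild type (-0.63 ± 0.29).

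Stat3 (ENSMUSG00000004040, chromosome 11, 100885098 to 100939540, minus strand), the transcription factor that the receptor activates, was tested in 16 classes and called in 1. In basophils and mast cells it had 78.3 and 77.8 CPM in fusion and 41.0 CPM in wild type (0.93 ± 0.19). The fusion libraries were nearly equal there. In cluster 14 the plain levels were 88.8 and 76.5 CPM in fusion and 38.1 CPM in wild type, and in cluster 19 46.2 and 84.7 CPM in fusion and 40.4 CPM in wild type. Outside that class the log2 fold changes of Stat3 ran from -0.37 in erythroblasts to 0.78 in pro-B cells. Mature neutrophils had its highest level, 181.8 and 226.8 CPM in fusion and 217.8 CPM in wild type, so wild type lay between the fusion libraries.

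Socs2 (ENSMUSG00000020027, chromosome 10, 95385362 to 95417180, minus strand), the inhibitor best known for limiting growth hormone signals, passed the count filter in 9 of 16 classes. Pro-B cells had its highest level, 127.8 and 123.9 CPM in fusion and 31.8 CPM in wild type (1.98 ± 0.29), in a class where 0.377% of genes were called higher. The share of pro-B cells with a Socs2 UMI was 48.2% and 46.1% in fusion and 19.7% in wild type, and 16.1% and 14.5% in fusion and 3.29% in wild type after thinning. In pre-B to mature B cells Socs2 had 30.6 and 38.9 CPM in fusion and 2.27 CPM in wild type, where 0.235% of genes were called higher. Those B cell values rest on 19 and 23 UMIs in fusion and 3 UMIs in wild type, which gives a ratio of pooled levels of 15.3 with a 95% counting interval of 4.89 to 77.1.

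B cells of the fusion libraries also differed in their marker sums. In the pre-B to mature B class the pro-B list summed to 6965 and 7096 plain CPM in fusion and 5448 in wild type, the pre-B to mature B list to 14279 and 16295 in fusion and 25396 in wild type, and the plasma cell list to 480.5 and 1656 in fusion and 3430 in wild type. Within the pro-B class the pro-B list summed to 7408 and 7230 plain CPM in fusion and 5945 in wild type. Their part in the Socs2 values was not tested. Lymphoid progenitors had 24.3 and 15.02 CPM of Socs2 in fusion and 4.21 CPM in wild type (2.21 ± 0.48), nearly all of it in cluster 8,0, led by Dntt and Myl10. That cluster had 70.7 and 31.8 plain CPM in fusion and 6.77 in wild type. It made up 37.7% and 38.9% of the class in fusion, against 68.6% in wild type.

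Stem and multipotent progenitors showed the opposite order for Socs2, 2.68 and 3.58 CPM in fusion and 22.3 CPM in wild type (-2.79 ± 0.50), from 5 and 8 UMIs in fusion and 26 in wild type. Both fusion libraries were lower, and the wild-type UMIs were all in cluster 8,1, at 5.18 and 6.26 plain CPM in fusion and 37.2 in wild type. Under a coarser clustering (resolution 0.5) the class gave -0.64 and was not called. At resolution 2 it gave -1.77 and was called, as it was without the low-count filter. The class held 182 and 201 fusion cells and 116 wild-type cells in the main run, and 245, 259 and 222 at resolution 2. At resolution 0.5 it held 270, 282 and 362. Of those 362 wild-type cells, 206 and 85 lay in clusters led by Dntt, a lymphoid progenitor marker. The part of this in the Socs2 values was not tested. Megakaryocytes had 8.42 and 9.77 CPM in fusion and 8.87 CPM in wild type, and neutrophils had at most 1 UMI per library in each of their 3 classes.

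**Figure D4:**
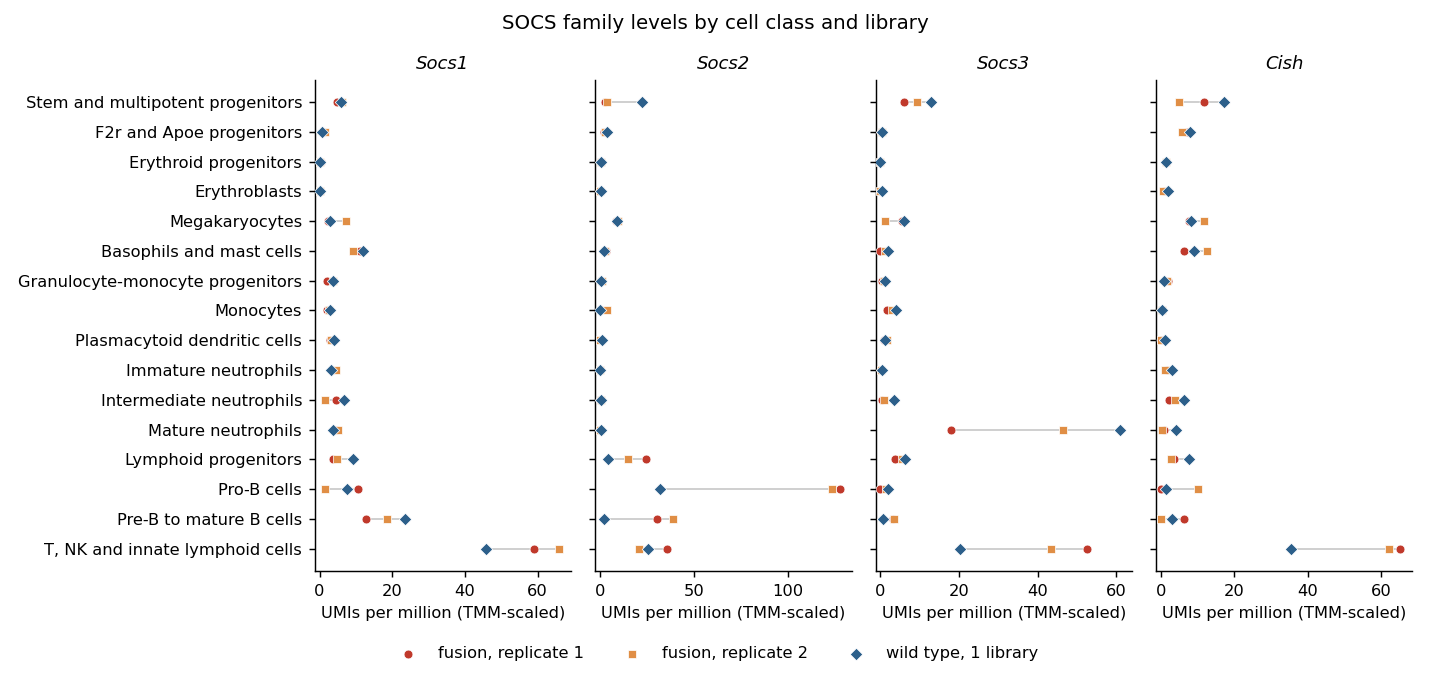
Levels (TMM-scaled CPM of UMIs, x axes with their own ranges) of Socs1, Socs2, Socs3 and Cish in each cell class (rows) for fusion replicate 1, fusion replicate 2 and the wild-type library; a grey line spans the 3 values. Socs2 is high in pro-B cells (127.8 and 123.9 in fusion, 31.8 in wild type), Socs3 in mature neutrophils, and Socs1, Socs3 and Cish in T, NK and innate lymphoid cells.

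For Socs3 and Cish, known STAT target genes, the 300 bases around the RefSeq start site (GRCm38.p6, 250 before and 50 after) were searched for the STAT motif TTCNNNGAA on both strands, which reads the same on each. Matches are in capitals, and 30 bases around them are shown because they are the only members with a match among the 6 whose window was searched.
Socs3: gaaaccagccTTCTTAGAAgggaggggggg
Cish: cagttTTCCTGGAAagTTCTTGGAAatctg
The Socs3 stretch lies on the minus strand at chr11:117969501-117969530, with its match starting 154 bases before the start site. The Cish stretch lies on the plus strand at chr9:107296654-107296683, and its 2 matches start at bases 1 and 12 from the RefSeq start site. These places hold for the RefSeq start sites only. The GENCODE spans of both genes, given below, begin further upstream, outside the windows searched. Of 32851 such windows, 8.3% held at least 1 match and 0.457% held 2 or more. The windows of Jak1, Tyk2, Stat3 and Socs1 held 0 matches, which says only that these letters are not in those windows, and Il10ra, Il10rb and Socs2 were not searched.

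Socs3 (ENSMUSG00000053113, chromosome 11, 117966079 to 117970047, minus strand), a brake on signals of the shared interleukin-6 receptor chain, passed the filter in 5 classes. In mature neutrophils it had 17.9 and 46.5 CPM in fusion and 61.0 CPM in wild type (-0.94 ± 0.33). Both fusion libraries were lower but differed from each other by more than fusion replicate 2 differed from wild type, and the log2 fold change was -0.39 without fusion replicate 1 and -1.78 without fusion replicate 2. edgeR called the pair lower without the low-count filter, at resolution 0.5 and with doublets kept (-0.92, -0.85 and -1.67). Clustering without these genes gave -0.24 and no call. Except without the filter, these runs held other cells in the class than the main run (1571 and 1189 fusion and 1232 wild-type cells). It had 2051, 1595 and 1745 at resolution 0.5 and 2054, 1575 and 1104 with doublets kept, both without an intermediate class. Clustered without these genes it had 1526, 1159 and 1764, and the intermediate class 569, 454 and 5. The part of these shifts in the Socs3 values of mature neutrophils was not tested. Fusion cells of this class lay in clusters 3 and 6, at 40.6 and 91.5 plain CPM and at 3.58 and 7.44 plain CPM, and wild-type cells in cluster 7, at 57.9 plain CPM, so cluster 3 lay on either side of the wild-type level and cluster 6 below it. In T, NK and innate lymphoid cells Socs3 had 52.6 and 43.3 CPM in fusion and 20.2 CPM in wild type (1.24 ± 0.36). Erythroid progenitors, erythroblasts and immature neutrophils had at most 3 UMIs of Socs3 per library.

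Cish (ENSMUSG00000032578, chromosome 9, 107296026 to 107302784, plus strand) had its highest level in T, NK and innate lymphoid cells, 65.2 and 62.2 CPM in fusion and 35.5 CPM in wild type (0.84 ± 0.31). The fusion libraries were close to each other and above wild type. In mature neutrophils it had 3 and 1 UMIs in fusion and 13 UMIs in wild type, which is 0.777 and 0.312 CPM in fusion and 4.11 CPM in wild type. That pair was called lower without the low-count filter and when clustered without these genes, at -2.76 and -3.56. It was not called under the other settings, where keeping doublets gave -0.81. As given for Socs3, the class held other cells when clustered without these genes and with doublets kept. In stem and multipotent progenitors Cish had 11.8 and 4.93 CPM in fusion and 17.2 CPM in wild type (-1.08 ± 0.54). The fusion libraries lay apart there by more than replicate 1 was from wild type. Cish was tested in 10 classes.

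Socs1 (ENSMUSG00000038037, chromosome 16, 10782240 to 10785536, minus strand), the inhibitor of interferon signalling, was tested in 12 classes. Its level was highest in T, NK and innate lymphoid cells, at 58.9 and 66.0 CPM in fusion and 45.9 CPM in wild type (0.44 ± 0.30). Pre-B to mature B cells had 12.9 and 18.6 CPM in fusion and 23.4 CPM in wild type (-0.57 ± 0.55). In T, NK and innate lymphoid cells, Socs1, Socs3 and Cish were each above wild type in both fusion libraries, while Il10ra was below. That class's own marker list summed to 5952 and 5241 plain CPM in fusion and 4383 in wild type, and the lymphoid progenitor list to 1554 and 1192 in fusion and 728.0 in wild type, whose part was not tested.

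Over the 48 sums of a library and a class, likeness of pattern was taken as Pearson's correlation of log2(CPM + 1) among 8763 genes. The points share libraries and depth, and the values are a description. Il10ra was most like Slc43a2, an amino acid transporter (r = 0.87), Napsa, an aspartic protease (0.87), and Plekha1 (0.85). Socs2 was most like Elk4 (0.86), Hes1, a transcription factor of the Notch pathway (0.85), and Hivep2 (0.84). Socs3 was most like Kpna4 (0.81), Igtp, an interferon-induced GTPase (0.79), and Junb (0.76). Cish was most like the T cell genes Gata3 (0.83) and Prkcq (0.81) and Pitpnc1 (0.77). Between members the highest correlation was that of Il10rb and Stat3 (0.84), and Il10ra and Cish were unrelated (0.006).

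The other genes of the pathway were read from 7 lists of 94 genes, and 84 were tested in at least 1 class, in 1030 gene and class pairs. Of these pairs 6 rose and 52 fell in fusion (edgeR, adjusted p under 0.05), that is 5.63% called against 1.98% of all pairs, and the median log2 fold change was -0.09 against 0.005 for all pairs. The same gene recurs across classes drawn from the same libraries, so pairs are not independent. With DESeq2 in place of edgeR, 1 pair rose and 12 fell, and 29 fell when cells were clustered without these genes.

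The interferon response list held 24 of the 52 pairs that fell, of 152 tested, with a median log2 fold change of -0.73. None rose by edgeR or DESeq2, and 3 were higher at an unadjusted p under 0.05. In 73.7% of its pairs both fusion libraries lay below wild type. Its called pairs lay in mature (8), intermediate (6) and immature neutrophils (3). The others lay in stem and multipotent progenitors, erythroid progenitors and erythroblasts (2 each) and monocytes (1). The mature and intermediate neutrophil values compare clusters that hold nearly only fusion or only wild-type cells, while the immature neutrophil clusters held many cells of every library. In intermediate neutrophils Rsad2, the antiviral enzyme viperin, fell to 12.9 and 32.2 CPM in fusion, against 108.9 CPM in wild type (-2.28 ± 0.23, edgeR adjusted p = 7.05e-20). In the same class the ubiquitin-like modifier Isg15 fell to 33.6 and 46.1 CPM in fusion, against 94.1 CPM in wild type (-1.24 ± 0.22), and Ifit1, which binds viral RNA, to 3.68 and 17.8 CPM, against 47.5 CPM. In stem and multipotent progenitors Ifi44 fell to 5.90 and 12.5 CPM in fusion, against 55.0 CPM in wild type (-2.53 ± 0.35, edgeR adjusted p = 0.0347). Fusion replicate 1 was lower than fusion replicate 2 for each of these 4 genes, and wild type was above both.

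The list of STAT3 and interleukin-10 response genes had 1 pair that rose and 15 that fell, of 234 tested, with a median of -0.13. In mature neutrophils Steap4, a metalloreductase, fell to 1.81 and 3.44 CPM in fusion, against 77.1 CPM in wild type (-4.89 ± 0.31, edgeR adjusted p = 4.8e-09), and Il1rn, the interleukin-1 receptor antagonist, fell to 12.7 and 18.7 CPM, against 180.5 CPM (-3.53 ± 0.23). Il4ra, the interleukin-4 receptor chain, fell there to 31.9 and 48.4 CPM in fusion, against 109.4 CPM in wild type. In these cells, as given above, Il10ra was 18.7 and 12.5 CPM in fusion and 8.22 CPM in wild type and Stat3 did not separate the genotypes. In basophils and mast cells the transcription factor gene Nfil3 fell to 38.6 and 30.3 CPM in fusion, against 108.3 CPM in wild type (-1.67 ± 0.19, edgeR adjusted p = 1.52e-09), and 5 of the list's 15 tested genes fell there and 1 rose, beside the higher Il10ra and Stat3. Of all 10200 genes tested in that class 6.14% fell and 2.6% rose. The gene that rose was Myc, at 71.5 and 82.6 CPM in fusion and 49.2 CPM in wild type, named after its value was seen.

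Of the ligand genes, 1 of 43 pairs rose and 2 fell. Il6 fell to 172.2 and 100.7 CPM in fusion basophils and mast cells, against 279.5 CPM in wild type, and Osm, the gene of oncostatin M, to 296.0 and 286.2 CPM, against 548.9 CPM. Both genes lead cluster 19, whose smaller share in the fusion class is given above. The pair that rose was Clcf1 in mature neutrophils, a cytokine of the interleukin-6 family, at 21.2 and 14.4 CPM in fusion and 0.948 CPM in wild type, named after its value was seen. Of the receptor genes, 2 of 128 pairs rose and 4 fell. Lifr, the leukaemia inhibitory factor receptor, rose to 25.2 and 26.5 CPM in fusion monocytes, against 12.1 CPM in wild type (1.10 ± 0.31), and Ifngr1, an interferon gamma receptor chain, fell to 54.8 and 45.6 CPM in fusion pre-B to mature B cells, against 104.2 CPM in wild type.

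Of the kinase and STAT genes other than the members, 0 of 124 pairs rose (2 at an unadjusted p under 0.05, 0 by DESeq2) and 5 fell, with a median of -0.21. Jak2, the kinase of the erythropoietin and interleukin-3 receptors, fell to 99.5 and 106.8 CPM in fusion basophils and mast cells, against 239.1 CPM in wild type (-1.21 ± 0.19, edgeR adjusted p = 3.6e-06). In that class Stat4 fell to 14.9 and 15.1 CPM, against 37.2 CPM. None of the 244 pairs of other inhibitors, among them Ptpn6, Cblb and Socs4 to Socs7, was called by edgeR or DESeq2 (17 had an unadjusted p under 0.05), and their median was -0.04. Of the STAT5 response genes 2 of 105 pairs rose and 2 fell. Ccnd2, a cyclin of the early cell cycle, rose to 315.1 and 400.7 CPM in fusion pro-B cells, against 147.0 CPM in wild type (1.29 ± 0.25), and fell to 13.99 and 14.7 CPM in fusion mature neutrophils, against 59.4 CPM in wild type (-2.05 ± 0.24). Another cyclin of that family, Ccnd3, rose to 544.5 and 616.7 CPM in fusion mature neutrophils, against 318.0 CPM in wild type (0.87 ± 0.23). Id1, an inhibitor of basic helix-loop-helix transcription factors, fell to 60.9 and 70.9 CPM in fusion basophils and mast cells, against 195.8 CPM in wild type (-1.56 ± 0.18).

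**Figure D5:**
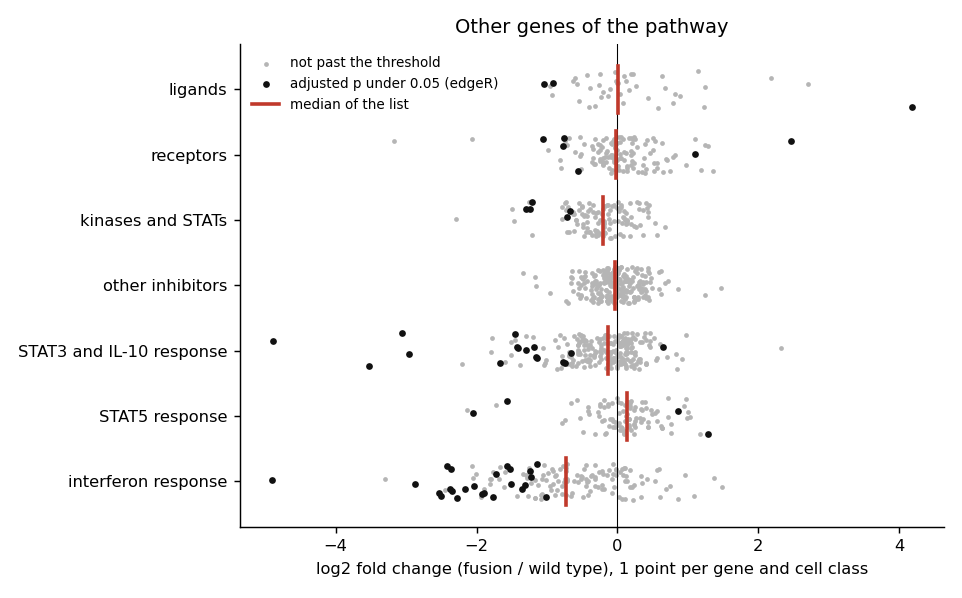
Log2 fold change (fusion over wild type, x axis) of every tested pair of a pathway gene and a cell class, by list (rows, points spread vertically for legibility); black points passed an edgeR adjusted p of 0.05, grey points did not, and a red bar marks the median of the list. The interferon response list has 24 black points, all left of 0, and a median of -0.73.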

How the data were processed

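Raw UMI counts per gene and barcode were deposited for 2 fusion and 1 wild-type library. The submitters' processing notes name bcl2fastq 2.20.0.422, Cell Ranger 5.0.1 and the build GRCm38, and the file headers name Cell Ranger 5.0.0. Counting settings are not given in the sources used here.

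Kept barcodes had at least 1000 UMIs and 400 genes and at most 10% mitochondrial UMIs; 194 to 318 predicted doublets per library were removed (scrublet in scanpy 1.11.5, expected rate 0.06). All cells were clustered jointly, with no batch integration, from 2000 variable genes, 30 components and 15 neighbours (leidenalg 0.10.2, resolution 1). A cluster with lymphoid and stem markers was split once at resolution 0.3. Classes were named by marker lists and may differ from the submitters' types.

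UMIs were summed per library and class and tested with edgeR 4.0.16 (TMM, filterByExpr, quasi-likelihood, genotype only). The single residual degree of freedom comes from the fusion libraries, and wild type is assumed to vary like them. The smallest p of an exact permutation over the 3 labellings is 0.333. Alternatives were DESeq2 1.42.0, its size factors, no count filter, other clusterings, kept doublets and single fusion libraries. The members, lists and tests were chosen with earlier results of these data known. Pathway genes named have a class mean of at least 20 CPM and the largest called changes of their list, up to 4 each; 1 gene given by this rule is not reported here. Sequences are from RefSeq (GRCm38.p6) and positions from GENCODE M21; 6 of the 9 genes had a window in the RefSeq table.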

Additional observations from a re-analysis of the deposited data

Results flagged for a closer look

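Socs2 was marked because its values lay in opposite directions in different classes, with both fusion libraries at least 1 log2 unit from wild type each time. The log2 fold change (fusion over wild type) was 2.21 in lymphoid progenitors, 1.98 in pro-B cells and 3.85 in pre-B to mature B cells, and -2.79 in stem and multipotent progenitors. The lymphoid progenitor and stem pairs were not called in the main run. The lymphoid progenitor pair was called at clustering resolution 2 (2.71) and with doublets kept (2.90). The stem pair was called at resolution 2 (-1.77) and without the low-count filter (-2.75). Its value was -0.64 and not called at resolution 0.5. The cells of the stem class differed between these clusterings, as given above. The difference between these classes was not tested. The wild-type level was 4.21, 31.8 and 2.27 CPM in the first 3 classes and 22.3 CPM in the stem class, and the counts behind it were 15, 46, 3 and 26 UMIs.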

How the results depend on the processing

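No paired analysis was possible because there is 1 wild-type library. The count of called member and class pairs, 6, was 2 with DESeq2 (Il10ra in basophils and mast cells and in granulocyte-monocyte progenitors), 11 without the low-count filter and 10 at resolution 0.5. The 6 pathway pairs that rose were 1 with DESeq2, and the 52 that fell were 12 with DESeq2 and 29 when clustered without the members and pathway genes. Il10ra in stem and multipotent progenitors, 2.40, was 2.09 at resolution 0.5, 2.91 at resolution 2, 2.18 with doublets kept and 2.04 when clustered without these genes, and 2.30 to 2.52 with either fusion library left out; the causes were not tested. In basophils and mast cells Il10ra stayed between 3.005 and 3.12 under every alternative run. Of 528 further values of 64 member and class pairs with enough counts, 63 moved by more than the spread between the fusion libraries, 10 lost their call and 34 changed sign, all of uncalled pairs whose size was at most 0.215. Besides those with DESeq2, calls were lost for Il10ra in F2r and Apoe progenitors (resolution 2, and clustered without these genes), Il10ra in monocytes (resolution 2) and Socs2 in pre-B to mature B cells (no filter, and resolution 0.5). Calls were gained for Il10ra in stem and multipotent progenitors (DESeq2 size factors, no filter, resolutions 0.5 and 2). Il10ra also gained calls in granulocyte-monocyte progenitors (DESeq2, no filter, resolution 0.5, clustered without these genes, doublets kept). Its other gained calls were in immature neutrophils (no filter, resolution 0.5, clustered without these genes) and mature neutrophils (resolution 0.5). Socs2 gained calls in lymphoid progenitors (resolution 2, doublets kept). The lower calls of Socs2, Socs3 and Cish under alternatives are given with those genes. Alternative classes with fewer than 50 cells in a library gave no value. Low counts limit Socs2, Socs3 and Cish most.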
